A study of Mus musculus with 11 samples.

Results

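Cells that lacked the surface protein CD73 during the reprogramming of mouse fibroblasts were set against the fibroblasts they came from. The comparison rests on 3 of the 11 arrays of the series, which were taken by their titles: CD73- cells at day 6, CD73- cells at day 9, and uninfected mouse embryonic fibroblasts (MEF), 1 array each. The CD73- cells were Rosa-rtTA+/- MEFs (heterozygous for a doxycycline-dependent activator at the Rosa locus), split at passage 3 and used at passage 4, and they carried 4 doxycycline-inducible viruses: tetO-Sox2, tetO-Myc, tetO-Oct4 and tetO-Klf4. Doxycycline was added 1 day after infection, which counted as day 0. Cells were double-sorted, and the labels call CD73- cells non-poised and the CD73+ and CD49d+ cells of the same days poised. The MEF array holds Rosa-rtTA+/- MEFs at passage 4 that were not infected; nothing in the labels says that they were sorted or given doxycycline, so infection, doxycycline, sorting and time in culture cannot be told apart here. Other arrays used for comparison are CD73+, CD49d+ and unsorted cells at both days, the partially reprogrammed line SC4 (passage 10) and the embryonic stem cell line V6.5 (ESC, passage 11). Whether day 6 and day 9 cells came from separate cultures is not stated.

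Fibroblasts hold a mesenchymal identity: they secrete collagens and other matrix proteins, carry actin stress fibres and respond to TGF-beta. The reprogramming factors push them towards pluripotency through a phase in which fibroblast genes are shut down and cells divide faster, before the endogenous stem cell network is switched on. Only a minority of cells completes this path, and surface proteins such as CD73 (an ectonucleotidase, gene Nt5e) and CD49d (the integrin alpha-4 chain, gene Itga4) have been used to sort cells at intermediate stages.

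The measured values are intensities of whole-transcript arrays with a floor of 100, where 52.1% to 54.3% of each array's probe sets lie. A value of 100 is therefore only an upper bound, and a fold against it is given as "at least". Of 22180 genes named, 13265 lay above the floor on at least 1 of the 3 arrays and were counted. With 1 MEF array shared by both days there is no test of CD73- cells against MEF, and a difference between arrays cannot be told apart from one between cells. Over all named genes the log2 intensities of the MEF array correlated at 0.886 with CD73- day 6 and at 0.894 with CD73- day 9, while both CD73- arrays correlated at 0.993, a description with no test. Across the whole series MEF correlated at 0.847 to 0.916 with every other array and ESC at 0.851 to 0.926, against 0.968 to 0.994 among the 8 reprogramming arrays. CD73- cells correlated at 0.924 (day 6) and 0.923 (day 9) with ESC. Of the named genes, 40.2% lay at the floor on both CD73- arrays and MEF. Centring each array on its median shifted the differences of CD73- cells from MEF by -0.13 log2 units at day 6 and -0.19 at day 9, and the differences below are given without it.

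On the MEF array the fibroblast surface markers Thy1, Pdgfra and Pdgfrb had intensities of 4926, 2775 and 4806, and the collagen genes Col1a1, Col1a2 and Col3a1 had 6664, 5618 and 2862. For Nt5e itself both CD73- arrays were low, at 332 and 292. MEF had 495, nearer to them than to the 3438 and 3658 of the CD73+ arrays. The integrin gene Itga4 had 153 and 169.6 in CD73- cells and 333 in MEF. Of the 4 introduced factors, the zinc finger protein Klf4 had 3965 and 3476 in CD73- cells and 704 in MEF, 5.63- and 4.93-fold higher. The growth regulator Myc had 217 and 226 in CD73- cells and 468 in MEF, which is 2.16- and 2.07-fold lower. Sox2 was at the floor in CD73- cells and MEF, and Pou5f1, the gene of Oct4, had 116 and 107 in CD73- cells and 105 in MEF. The labels do not say if these probe sets also read the viral transcripts. Of markers of other cell types, Ptprc and Csf1r of blood cells, Adgre1 of macrophages, Kdr of endothelium and Myf6 of muscle lay at the floor on all 3 arrays. Others did not: 5 of 11 macrophage and blood cell markers, 7 of 11 endothelial and 6 of 14 skeletal muscle markers lay above the floor on at least 1 of the 3, as described with the lists. In bulk RNA, fewer cells of a type and less RNA per cell cannot be told apart, which holds for every level given here.

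Genes were counted where CD73- cells differed from MEF at least 2-fold, the threshold used throughout. At day 6, 1465 genes were at least 2-fold higher (11.0% of those counted) and 1509 lower (11.4%). At day 9, 1541 were higher (11.6%) and 1339 lower (10.1%). At both days 1319 genes were higher (9.94%) and 1272 lower (9.59%), and 0 genes were higher at 1 day and lower at the other. The balance of higher to lower genes depends on the scaling: with each array centred on its median, 995 genes were higher and 1556 lower at both days, and 1124 higher and 1733 lower at day 9. Quantile normalization gave 1139 higher and 1394 lower at both days. Both days were set against the same MEF array, so this count is not independent support for any gene. Downward differences reached further: 372 genes lay 4-fold or more below MEF at both days against 250 above, and 100 lay 8-fold or more below against 35 above. MEF lay at the floor for 120 of the higher genes, and CD73- cells at both days for 170 of the lower ones.

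**Figure D1:**
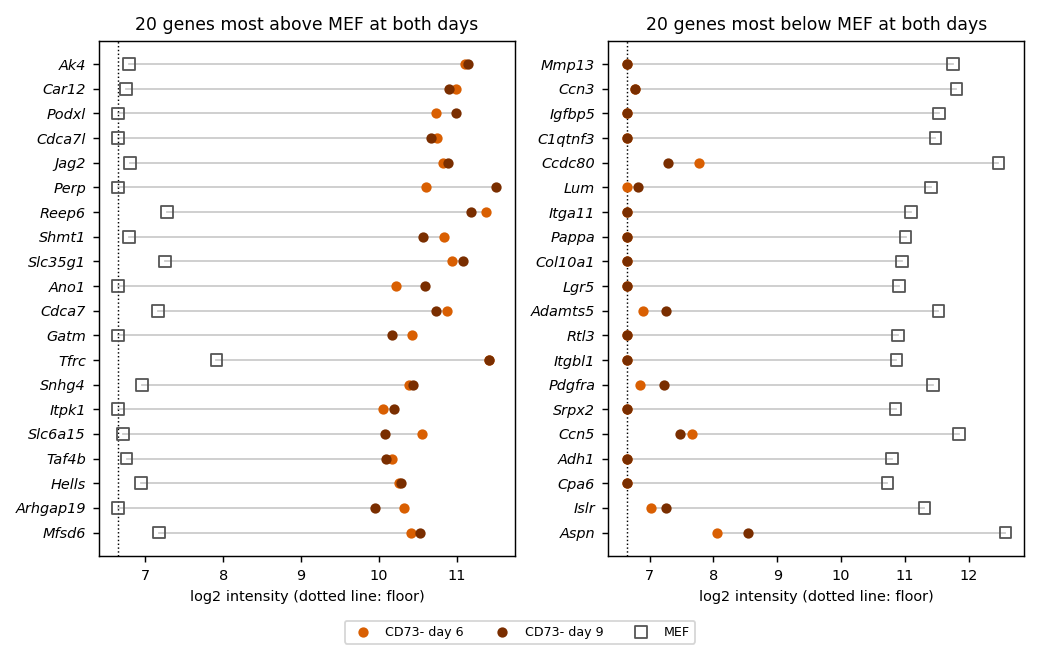
The 20 genes farthest above MEF (left) and the 20 farthest below (right) in CD73- cells, by the smaller difference of the 2 days, as log2 intensity. Filled points are CD73- day 6 and day 9, open squares MEF, 1 array each, and the dotted line is the floor of 100. In all 40 genes both CD73- points lie on the same side of MEF, which the choice of genes fixes.

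The plot of the 20 leading genes on each side shows those farthest above MEF and those farthest below. Among the higher ones, Ak4, a mitochondrial adenylate kinase, had 2200.5 and 2272 in CD73- cells at days 6 and 9, against 111 in MEF, and stood 19.9- and 20.5-fold higher. Carbonic anhydrase XII, encoded by Car12, had 2042 and 1905 in CD73- cells and 108 in MEF. Its level in ESC was 153 and SC4 lay at the floor. Gatm, which makes the creatine precursor guanidinoacetate, had 1371 and 1155 in CD73- cells, with MEF at the floor. Both Car12 and Gatm were also higher in CD73- than in poised cells, by 1.26 ± 0.132 log2 units (SE, limma, adjusted p = 0.00980) and 1.19 ± 0.122 log2 units (SE, limma, adjusted p = 0.00935). Both were chosen for high values on the same CD73- arrays, which favours this direction. The p-values do not account for that choice. Shmt1, a serine hydroxymethyltransferase of folate metabolism, had 1836 and 1511 in CD73- cells and 111 in MEF. The neutral amino acid transporter gene Slc6a15 had 1504 and 1081 in CD73- cells and 105 in MEF, and the transferrin receptor gene Tfrc, which brings iron into dividing cells, 2732 and 2739.7 against 241 in MEF. Slc35g1, a further solute carrier, had 1961 and 2169 in CD73- cells and 152 in MEF.

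Several leading genes encode membrane or junction proteins. Podxl, a sialomucin of the apical membrane, had 1702 and 2043 in CD73- cells with MEF at the floor. Perp, a protein of desmosomes and a p53 target, had 1563 and 2914 in CD73- cells with MEF at the floor. The Notch ligand gene Jag2 had 1804 and 1887 in CD73- cells and 112 in MEF. Ano1, a calcium-activated chloride channel, had 1193 and 1537 in CD73- cells, with both MEF and ESC at the floor. In poised cells Podxl and Ano1 stood higher still: CD73- cells differed from them by -0.47 ± 0.0813 log2 units (SE, limma, adjusted p = 0.0282) and -1.10 ± 0.0897 log2 units (SE, limma, adjusted p = 0.00648). Perp had 3125 and 3400.2 in CD49d+ and 3295 and 3734 in CD73+ cells, a difference that did not pass (-0.66 ± 0.174 log2 units, SE, limma, adjusted p = 0.0711). Of the nuclear factors among the leading genes, Hells, a chromatin remodeler needed for DNA methylation, had 1221 and 1249.9 in CD73- cells and 123 in MEF, and Cdca7, its partner, had 1879 and 1699.6 against 143 in MEF. The related gene Cdca7l had 1723 and 1626 with MEF at the floor, and Taf4b, a subunit of the general transcription factor TFIID, 1151 and 1086 against 108 in MEF. Reep6, Itpk1, Arhgap19, Mfsd6 and the noncoding RNA Snhg4 complete the 20, with CD73- cells 17.1- and 15.0-fold, at least 10.7- and 11.7-fold, at least 12.8- and 9.88-fold, 9.41- and 10.2-fold and 10.8- and 11.2-fold above MEF.

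A small set of higher genes lay at the floor in ESC as well. ESC lay at the floor for 26 of the 1319 genes higher at both days, and both ESC and SC4 for 9. Krtdap, a secreted protein of differentiating keratinocytes, had 877 and 642 in CD73- cells with MEF, ESC and SC4 at the floor. It was higher in CD73- than in poised cells by 1.34 ± 0.198 log2 units (SE, limma, adjusted p = 0.0212). Krtdap was chosen for CD73- values above MEF, which favours this direction and is not accounted for in the p-value. Unsorted cells had more Krtdap than CD73- cells, at 1645 and 1787. Gria4, a glutamate receptor subunit, had 213 and 263 in CD73- cells and lay at the floor on the MEF, SC4, ESC and all 4 poised arrays; it was singled out after its values were seen. Aldh1a1, a retinal dehydrogenase picked in the same way, had 608 and 1103 in CD73- cells and 131 in MEF, and 1542 and 1474 in CD73+ cells.

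Of the 20 genes farthest below MEF, the collagenase gene Mmp13 lay at the floor in CD73- cells at both days and at 3454 in MEF, at least 34.5-fold lower. Ccn3 and Ccn5, matricellular proteins of the CCN family, were lower: Ccn3 had 109.6 and 109.6 in CD73- cells and 3577 in MEF, and Ccn5 had 203 and 178 in CD73- cells and 3673 in MEF. Igfbp5, an IGF-binding protein, was at the floor in CD73- cells and at 2972 in MEF (at least 29.7-fold lower), and Pappa, the protease that cleaves IGF-binding proteins, was at the floor in CD73- cells and at 2060.3 in MEF. Pdgfra, the PDGF receptor that marks fibroblasts, had 115 and 149 in CD73- cells and 2775 in MEF. Lum and Aspn, small leucine-rich proteoglycans that bind collagen, were lower: Lum had 100 and 113 in CD73- cells and 2708 in MEF, and Aspn had 266 and 374 in CD73- cells and 6094 in MEF. Itga11, an integrin chain that binds collagen, and Lgr5, an R-spondin receptor, were at the floor in CD73- cells at both days and had 2191 and 1923 in MEF. The remaining 10 were C1qtnf3, Ccdc80, Col10a1, Adamts5, Rtl3, Itgbl1, Srpx2, Adh1, Cpa6 and Islr, of which Ccdc80, a secreted matrix protein, had 218 and 157 in CD73- cells, against 5645 in MEF. Lgr5, Adh1 and Ccdc80 have 2 probe sets each, and the 1 of higher mean was used. With the mean of both, their smaller differences of the days were -2.48, -2.08 and -3.93 log2 units, against -4.27, -4.16 and -4.69.

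Fibroblast genes were defined on the 2 control arrays alone, as the 544 genes at least 4-fold higher in MEF than in ESC. Of these, 446 (82.0%) were at least 2-fold lower in CD73- cells than in MEF at both days, 277 of them (50.9% of all) by 4-fold or more. Over all genes counted, 9.59% were at least 2-fold lower. Choosing genes for a high MEF value favours lower values on every other array, so the gap between these shares is partly set by the choice. Only 35 (6.43%) were retained, meaning no more than 0.5 log2 units below MEF at both days, against 76.8% of all genes counted. The other 63 lay between these bounds. The median difference of the 544 genes was -2.22 log2 units at day 6 and -2.08 at day 9, against 0 and 0.0071 over all genes counted. The number retained also depends on the scaling: under median centring 13 of these 35 lay more than 0.5 log2 units below MEF on at least 1 day, and with quantile normalization 4 did. The last retained gene lay at -0.4976 log2 units from MEF at its lower day and the first outside at -0.5046.

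**Figure D2:**
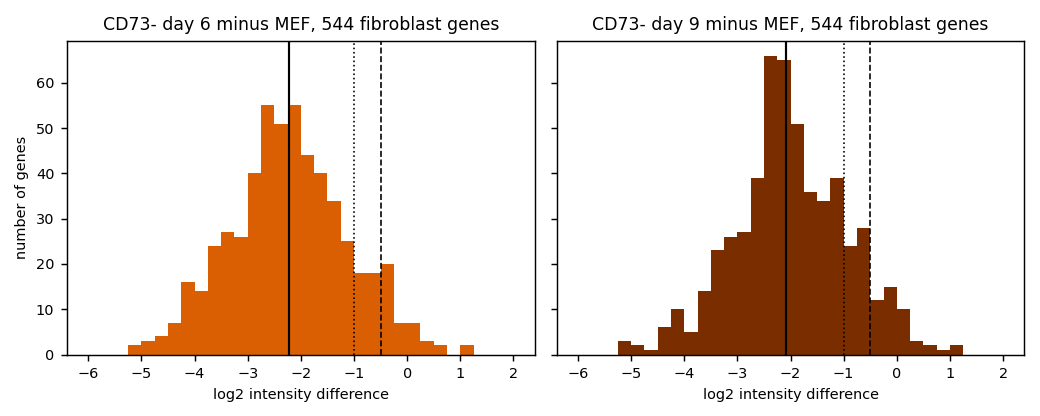
Number of fibroblast genes (vertical axis) by log2 intensity difference of CD73- cells from MEF at day 6 (left) and day 9 (right). The solid line is the median (-2.22 and -2.08), the dotted line marks 2-fold lower and the dashed line the bound of 0.5 log2 units for a retained gene; most genes lie left of the dotted line.

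The same counts at the 2-fold bound were of like size in the other reprogramming populations, and all share the MEF array. At 4-fold or more below MEF at both days they ranged wider. There CD73- cells had 277 genes (50.9%), CD73+ cells 307 (56.4%), CD49d+ cells 261 (48.0%) and unsorted cells 201 (36.9%). CD73- cells had 35 retained and 446 lost, CD73+ cells 48 retained and 418 lost, CD49d+ cells 43 retained and 425 lost and unsorted cells 31 retained and 419 lost. The direct comparison of CD73- with poised cells does not use MEF: limma was fitted to the 8 reprogramming arrays, with population and day as terms, and CD73- cells were set against the mean of CD49d+ and CD73+ cells. With 1 array per population and day, its p-values measure only how well the days agree. Of the 544 fibroblast genes 522 could be tested, and 41 (7.85%) were higher in CD73- than in poised cells, against 4.85% of all 13313 genes tested (Benjamini-Hochberg adjusted p under 0.05). Another 44 (8.43%) were lower, against 7.16%. The median difference of the fibroblast genes, 0.02 log2 units, was close to the 0.01 of all genes tested. The fit depends on single libraries: with any 1 array left out it called between 0 and 812 genes higher and between 1 and 963 lower, against 646 and 953 with all. The lowest counts came without the unsorted day 6 array, so no gene given here as higher than in poised cells passed without it.

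The 15 retained genes with the largest excess of MEF over ESC were led by Xist, the RNA that coats the inactive X chromosome of female cells. It had 4168 and 4073 in CD73- cells, 3549.7 in MEF and 129.8 in ESC. Xist marks female cells and not fibroblasts, so its excess over ESC need not be a fibroblast trait. Of the 35 retained genes 5 lay on the X chromosome, as did 30 of the 544 fibroblast genes. Capn6, a calpain-like protein, had 2379 and 2261 in CD73- cells and 2258 in MEF, with ESC at the floor. Ly96, the co-receptor through which TLR4 senses lipopolysaccharide, had 2205 and 2722 in CD73- cells and 2459 in MEF. Ccnd2, the G1 cyclin D2, had 4810.4 and 5091 in CD73- cells and 6792 in MEF. Vcan, the large proteoglycan versican, was the matrix gene of this group: it had 1294 and 1226 in CD73- cells and 1641 in MEF, while CD49d+ cells had 748 and 492 and CD73+ cells 778 and 505. Hs6st2, a heparan sulfate 6-O-sulfotransferase, had 884 and 724 in CD73- cells and 838 in MEF. Its levels were 427 and 285 in CD49d+ and 606 and 505 in CD73+ cells. With each array centred on its median, Ccnd2 and Vcan no longer counted as retained. Keeping close to MEF chose these genes, which favours higher values in CD73- than in poised cells. No count or test of them as a group against poised cells is therefore given. Being retained was not particular to CD73- cells: of the 544 fibroblast genes, CD73+ cells retained 48 and CD49d+ cells 43, against 35. Xist had 4185 and 3878 in CD49d+ and 4848 and 5530 in CD73+ cells. For Ly96 the levels were 1947 and 2032 in CD49d+ and 3193 and 3814 in CD73+ cells.

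The cell cycle inhibitor locus Cdkn2a, a known barrier to reprogramming, had 986 and 979.7 in CD73- cells, 731 in MEF and 130.4 in ESC. Among transcription factors, Hoxd13, a limb patterning gene, had 823 and 953 in CD73- cells and 959.6 in MEF, and Zhx1 had 963 and 954 against 942 in MEF. The costimulatory ligand gene Cd80 had 979 and 1327 in CD73- cells and 882 in MEF, and the semaphorin gene Sema6a 580.3 and 618 against 653 in MEF. Ano3, a member of the anoctamin family, had 968 and 1083 in CD73- cells and 608 in MEF, and the copine gene Cpne2 1007 and 1178 against 1412 in MEF, which is outside the bound under median centring and under quantile normalization. Within the fibroblast genes 2 went the other way and were at least 2-fold higher in CD73- cells at both days. They were Cd109, a GPI-anchored co-receptor that restrains TGF-beta signalling, with 3243 and 3525 in CD73- cells and 1565 in MEF, and Dglucy, a D-glutamate cyclase, with 1369.9 and 1338 against 647 in MEF. Under median centring neither was 2-fold higher at both days. Poised cells stood higher still in Cd109, with 4683 and 4366 in CD49d+ and 4900 and 5343 in CD73+ cells. For Dglucy, CD49d+ cells had 1627 and 1338 and CD73+ cells 1546 and 1338.

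Lists of genes by role showed where the CD73- cells parted from MEF, as the plot of the members of 20 lists shows. List members named beyond the 6 with the largest differences and the defining markers were chosen after their values were seen. No list was tested as a set; each count is given beside the 9.94% of all counted genes that were higher at both days and the 9.59% that were lower. Matrix and surface genes of fibroblasts had the lowest median of the 20 lists plotted: 48 of 55 counted were at least 2-fold lower at both days and 0 higher, with medians of -2.94 and -2.49 log2 units at days 6 and 9. Median centring moves the median of each list by the shifts of -0.13 and -0.19 given above. The collagen chain gene Col1a1 had 867 and 1120.3 in CD73- cells and 6664 in MEF, and Col1a2 409 and 509 against 5618 in MEF. Lox, which crosslinks collagen, had 525 and 811 in CD73- cells and 8431 in MEF, 16.1- and 10.4-fold lower. Fbln5, a protein of elastic fibres, had 367 and 409 in CD73- cells and 6347 in MEF. Thy1, the surface protein used to follow the loss of fibroblast identity, had 332 and 449.8 in CD73- cells and 4926 in MEF. The 3 genes of the list no more than 0.5 log2 units below MEF were the intermediate filament gene Vim with 9956 and 10261 in CD73- cells and 11101 in MEF, Vcan as above, and the hyaluronan receptor gene Cd44 with 778 and 974 against 397 in MEF.

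**Figure D3:**
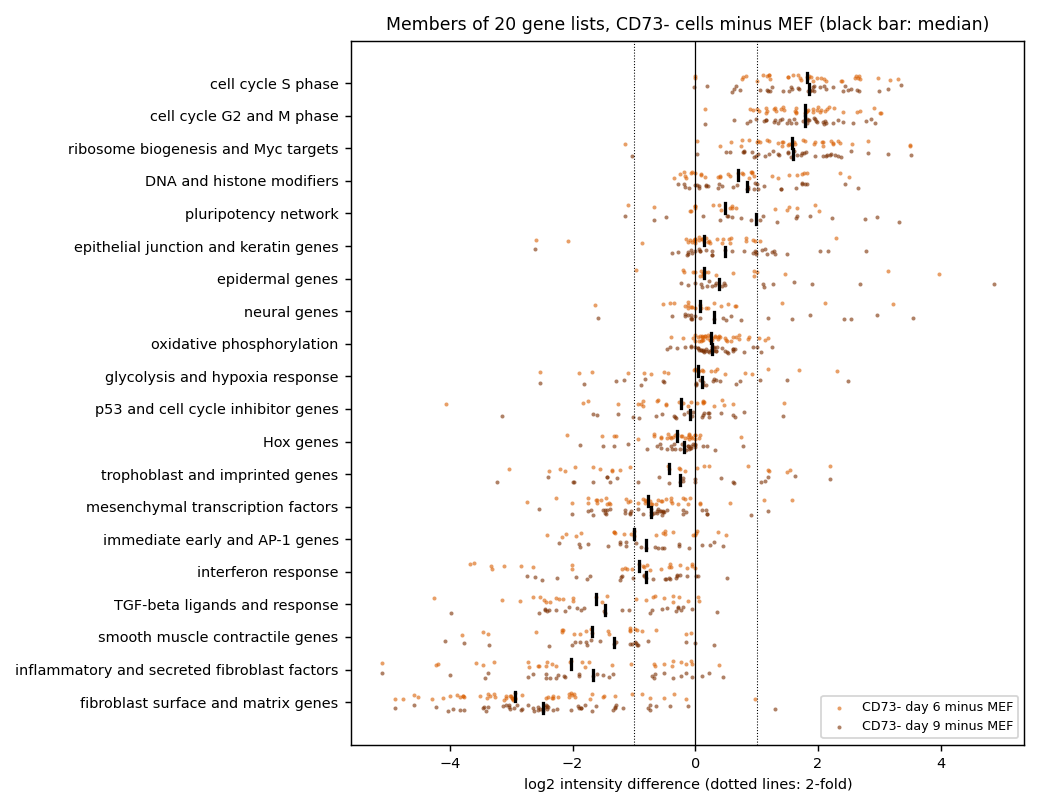
Log2 intensity difference of CD73- cells from MEF (horizontal axis) for each counted member of 20 gene lists, at day 6 (light points) and day 9 (dark points), with the median as a black bar and 2-fold as dotted lines. Cell cycle and ribosome biogenesis genes lie mostly right of the upper line and matrix, secreted, contractile and TGF-beta genes mostly left of the lower one.

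Some matrix genes were higher in CD73- than in poised cells. Of the 54 matrix and surface genes tested, 7 were higher in CD73- than in poised cells and 1 was lower, against 4.85% and 7.16% of all genes tested. The small proteoglycan gene Ogn had 1441 and 1227 in CD73- cells, against 373 and 167 in CD49d+ cells, 166 and 129 in CD73+ cells and 5832 in MEF. The groups did not overlap, and the difference from poised cells was 2.80 ± 0.241 log2 units (SE, limma, adjusted p = 0.00696). Efemp1, a fibulin, had 1552 and 1419.8 in CD73- cells, 636 and 246 in CD49d+, 219 and 255 in CD73+ cells and 2217 in MEF. Its difference was 2.28 ± 0.369 log2 units (SE, limma, adjusted p = 0.0257). Unsorted cells had 2444 and 3069 in Efemp1, above both CD73- cells and MEF. In Ogn they had 851 and 852, below CD73- cells. Postn, the matricellular protein periostin, had 2046 and 3496 in CD73- cells, 2042 and 1263 in CD49d+ and 253 and 349.7 in CD73+ cells, and its difference was 1.95 ± 0.336 log2 units (SE, limma, adjusted p = 0.0284); CD49d+ day 6 lay about level with CD73- day 6. Bgn, the proteoglycan biglycan, passed at 1.17 ± 0.204 log2 units (SE, limma, adjusted p = 0.0296) although CD49d+ day 6 (6205) exceeded CD73- day 6 (5787). The collagen gene Col3a1, the versican gene Vcan and the fibulin gene Fbln1 were the remaining 3, by 1.13 ± 0.159 log2 units (SE, limma, adjusted p = 0.0189), 1.03 ± 0.137 log2 units (SE, limma, adjusted p = 0.0164) and 0.48 ± 0.0948 log2 units (SE, limma, adjusted p = 0.0376). The 1 gene lower in CD73- cells was Eng, a TGF-beta co-receptor (-0.46 ± 0.0685 log2 units, SE, limma, adjusted p = 0.0212).

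**Figure D4:**
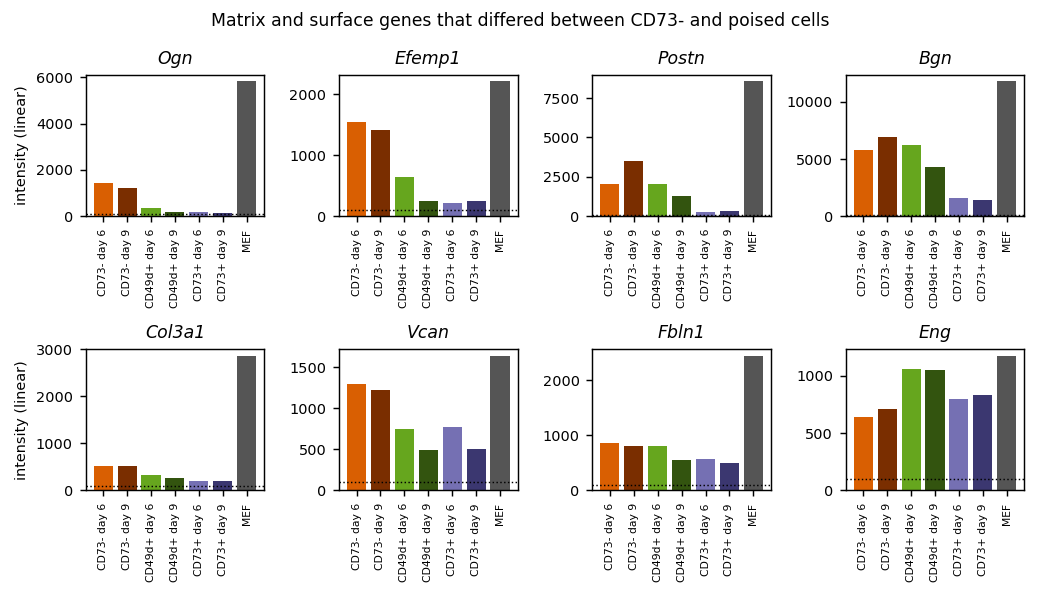
Linear intensity of the 8 matrix and surface genes that passed between CD73- and poised cells, as 1 bar per array: CD73-, CD49d+ and CD73+ cells at both days, then MEF. The dotted line is the floor of 100. In the first 6 panels and for Fbln1 the CD73- mean exceeds the poised mean, for Eng it is lower. MEF is the highest of the arrays shown in every panel. Unsorted cells are not shown, and in Efemp1 they had 2444 and 3069, above the 2217 of MEF.

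Contractile genes of smooth muscle type, which MEF express in culture as part of their stress fibres, were lower in 15 of 23 members and higher in 0, with medians of -1.68 and -1.33 log2 units; with each array centred on its median the count was 19. Cnn1, which encodes calponin, had 122 and 100 in CD73- cells and 1699 in MEF, and Tagln, the actin-binding protein transgelin, 366 and 295 against 4039 in MEF. Acta2, smooth muscle actin, had 2263 and 2784 in CD73- cells and 10221 in MEF, 4.52- and 3.67-fold lower. Myl9, a regulatory myosin light chain, had 375 and 376 in CD73- cells and 3886 in MEF, and Cnn2 had 787 and 911 against 4774 in MEF. Many such genes are controlled by SRF, which binds the CArG box. In the promoter table of RefSeq (assembly GRCm38.p6, 250 bases before to 50 after each gene's start, the first promoter listed per gene), 3 of 19 promoters of the list held a CArG box, on either strand, against 1.57% of all 27025 promoters. The 3 were those of Cnn2, Myl9 and Vcl. Shown here are the ones with the larger differences, with the CArG box in capitals, since Myl9 (chr2:156775214-156775513, + strand) and Cnn2 (chr10:79988350-79988649, + strand) are both lower at both days.

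Myl9: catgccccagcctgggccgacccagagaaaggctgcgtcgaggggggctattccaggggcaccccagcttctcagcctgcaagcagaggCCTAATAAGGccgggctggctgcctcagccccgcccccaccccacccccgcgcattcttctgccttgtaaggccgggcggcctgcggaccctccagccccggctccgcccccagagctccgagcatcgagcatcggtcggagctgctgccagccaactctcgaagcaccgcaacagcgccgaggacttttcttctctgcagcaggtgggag

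Cnn2: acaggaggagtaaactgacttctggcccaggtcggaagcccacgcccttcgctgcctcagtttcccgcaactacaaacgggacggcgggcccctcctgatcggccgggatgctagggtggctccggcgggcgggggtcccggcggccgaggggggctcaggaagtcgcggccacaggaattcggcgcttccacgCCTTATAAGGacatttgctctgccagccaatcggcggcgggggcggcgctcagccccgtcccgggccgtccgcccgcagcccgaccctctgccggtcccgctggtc

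Secreted factors and inflammatory genes were lower in 20 of 31 members and higher in 0, with medians of -2.02 and -1.67. The chemokine gene Cxcl12 had 211 and 376 in CD73- cells and 3934 in MEF, and the growth factor gene Igf1 109.8 and 122 against 1314 in MEF. Antagonists of other signals were low too: the Wnt modulator gene Dkk3 had 148 and 168 in CD73- cells and 2698 in MEF, and the BMP antagonist gene Grem1 205 and 320.4 against 2007 in MEF. Hgf, a growth factor for epithelia, and Wnt5a lay at the floor in CD73- cells at both days and had 544 and 485 in MEF. Against poised cells 3 of 30 were higher in CD73- cells and 0 lower, beside 4.85% and 7.16% of all genes tested. They were Ptx3, Icam1 and the fibroblast growth factor gene Fgf7, of which Fgf7 differed by 0.94 ± 0.157 log2 units (SE, limma, adjusted p = 0.0264).

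In the TGF-beta list 16 of 27 genes were lower and 0 higher, with medians of -1.62 and -1.47. Of the ligands, Tgfb1 had 254 and 337 in CD73- cells and 1841 in MEF, Tgfb3 had 967 and 961 against 5019.8 in MEF, and the activin subunit gene Inhba 173 and 183 against 996 in MEF. Bmp4, a related ligand, had 100 and 121 in CD73- cells and 1911 in MEF, and poised cells exceeded CD73- cells in it (-1.11 ± 0.174 log2 units, SE, limma, adjusted p = 0.0239). Among the 27 tested against poised cells, 4 were lower in CD73- cells and 2 higher, beside 7.16% and 4.85% of all genes tested. Of the receptors, Tgfbr2 had 419 and 535 in CD73- cells and 1876 in MEF, whereas Tgfbr1 had 526 and 491 against 509 in MEF. Ltbp2 and Ltbp3, latent TGF-beta binding proteins of the matrix, were lower: Ltbp2 had 146 and 219 in CD73- cells and 1290.4 in MEF, and Ltbp3 had 300.3 and 353 in CD73- cells and 1877 in MEF. The feedback target Pmepa1 had 602 and 686 in CD73- cells and 3314 in MEF.

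Transcription factors of mesenchyme showed smaller differences: 16 of 42 were lower, 1 was higher, and the medians were -0.77 and -0.72. Osr1 had 652 and 745 in CD73- cells and 4354 in MEF, and Runx1 238 and 284 against 956 in MEF. Twist1 and Snai2, inducers of the mesenchymal state, were lower: Twist1 had 252 and 263 in CD73- cells and 732 in MEF, and Snai2 had 1233 and 1698 in CD73- cells and 3769 in MEF. Prrx1, a homeobox gene of limb mesenchyme, had 1951 and 1814 in CD73- cells and 5138 in MEF, and it was lower in CD73- than in poised cells (-0.88 ± 0.0993 log2 units, SE, limma, adjusted p = 0.0111). Among the 42 tested against poised cells, 5 were lower in CD73- cells and 2 higher, beside 7.16% and 4.85% of all genes tested. The 1 gene higher than in MEF was Alx1, a homeobox gene of craniofacial mesenchyme, with 299 and 228 in CD73- cells and MEF at the floor. With each array centred on its median, 0 genes of this list were higher. Hox genes, which record position along the body, were lower in 4 of 31 and higher in 0, with medians of -0.31 and -0.19. Those lower were Hoxc8 (374 and 434 in CD73- cells and 1601 in MEF), Hoxb9, Hoxc6 and Hoxa13.

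Immediate early and AP-1 genes, which respond to growth factors and stress, were lower in 9 of 23 and higher in 0, with medians of -0.99 and -0.80. Fosl2, an AP-1 subunit, had 473 and 554 in CD73- cells and 2043 in MEF, the phosphatase gene Dusp1 had 319.6 and 391 against 1449 in MEF, and Fos 212 and 225 against 527 in MEF. Gadd45b had 919 and 759.6 in CD73- cells and 918 in MEF, while CD49d+ cells had 239.6 and 275 and CD73+ cells 349.6 and 260.2, so that CD73- cells differed from poised cells by 1.59 ± 0.144 log2 units (SE, limma, adjusted p = 0.00768). Among the 23 tested against poised cells, 2 were higher in CD73- cells and 2 lower, beside 4.85% and 7.16% of all genes tested. Interferon response genes were lower in 11 of 27 and higher in 0, with medians of -0.91 and -0.80. Stat2, a transducer of interferon signals, had 157 and 224 in CD73- cells and 1369 in MEF, and the antiviral gene Ifit1 121 and 178 against 1194 in MEF. Ddx58, the gene of the RNA sensor RIG-I, had 175 and 516 in CD73- cells and 1751 in MEF, and Usp18, which restrains the interferon receptor, 130.3 and 347 against 1662 in MEF, both nearer to MEF at day 9 than at day 6.

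Cell division genes stood above MEF. Of the S phase list 30 of 36 were at least 2-fold higher at both days and 0 lower, with medians of 1.83 and 1.85 log2 units. For G2 and M phase the numbers were 33 of 38 and 0, with medians of 1.79 and 1.79. The replication licensing genes Cdc6 and Cdt1 were higher: Cdc6 had 792 and 793 in CD73- cells and lay at the floor in MEF, and Cdt1 had 1571 and 1427 in CD73- cells and 245 in MEF. Mcm10, a replication factor, had 1032 and 1007 in CD73- cells and 114 in MEF, 9.03- and 8.80-fold higher. Uhrf1, which guides maintenance methylation at forks, had 1686 and 1730.4 in CD73- cells and 277 in MEF, and Dut, a dUTPase, 1185 and 1196 against 188 in MEF. Of mitotic genes, the spindle protein gene Nusap1 had 2122 and 2138 in CD73- cells and 281 in MEF, the checkpoint kinase gene Bub1b 1192 and 1021 against 148 in MEF, and the survivin gene Birc5 642 and 548 against 104 in MEF. E2f1 was an exception, with 598 and 587 in CD73- cells and 598 in MEF. Against poised cells, 2 of 36 S phase genes were higher in CD73- cells and 0 lower, beside 4.85% and 7.16% of all genes tested. The share of S phase genes that were higher was thus close to that of all genes. Hells differed by 0.44 ± 0.0964 log2 units (SE, limma, adjusted p = 0.0483). The cyclin gene Ccne1 differed by 0.31 ± 0.0537 log2 units (SE, limma, adjusted p = 0.0289). Hells was chosen above for CD73- values far above MEF, which favours this direction and is not accounted for in its p-value.

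Replication genes are known targets of E2F factors, whose site was searched as TTTNNCGC on both strands. It was found in 13 of 31 S phase promoters (41.9%) and in 5.27% of all promoters in the table. The promoters of Hells (chr19:38930740-38931039, + strand) and Cdc6 (chr11:98907901-98908200, + strand) are given because these genes differed most from MEF among members with a match, which stands in capitals.

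Hells: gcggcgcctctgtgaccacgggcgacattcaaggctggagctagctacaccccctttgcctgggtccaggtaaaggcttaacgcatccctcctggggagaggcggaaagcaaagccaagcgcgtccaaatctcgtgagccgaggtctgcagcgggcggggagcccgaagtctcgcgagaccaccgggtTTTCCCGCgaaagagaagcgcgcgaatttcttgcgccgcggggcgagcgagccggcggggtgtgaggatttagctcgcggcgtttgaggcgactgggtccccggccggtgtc

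Cdc6: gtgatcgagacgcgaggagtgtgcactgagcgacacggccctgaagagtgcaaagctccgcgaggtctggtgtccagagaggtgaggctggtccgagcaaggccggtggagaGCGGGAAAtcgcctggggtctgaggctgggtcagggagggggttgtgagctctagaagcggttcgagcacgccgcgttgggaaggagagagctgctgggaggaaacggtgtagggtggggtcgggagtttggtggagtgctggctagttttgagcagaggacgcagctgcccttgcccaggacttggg

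The first base of the match lies at -62 from the gene's start in Hells and at -138 in Cdc6. A match describes these letters and is neither a binding site shown here nor a cause, and base composition was not matched between the list and all promoters.

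Ribosome biogenesis genes and other known Myc targets were higher in 28 of 38 members and lower in 1, with medians of 1.57 and 1.59. The nucleolar protein gene Ncl had 4490.2 and 4526 in CD73- cells and 877 in MEF, 5.12- and 5.16-fold higher. Rrp1b had 1355 and 1055 in CD73- cells and 120.1 in MEF, Polr1b, a subunit of RNA polymerase I, 1561 and 1558 against 222 in MEF, and Dkc1, the pseudouridine synthase dyskerin, 2773 and 2755 against 473 in MEF. The lower gene was the translation initiation factor gene Eif4a1, with 1969 and 2113 in CD73- cells and 4341 in MEF, and with the mean of all probe sets of each gene 0 of the list were lower. CD73- cells also stood above poised cells: 10 of 38 members were higher, against 4.85% of all genes tested. These were Ncl (0.44 ± 0.0851 log2 units, SE, limma, adjusted p = 0.0353), Nop58, Nolc1, Polr1a, Rrp12 (0.71 ± 0.123 log2 units, SE, limma, adjusted p = 0.0289), Tfrc, Rcl1, Nop14, Noc4l and Nle1. Myc binds the E-box CACGTG, which was found in 9 of 34 promoters of the list (26.5%) and in 7.24% of all promoters. Of the 27 promoters whose genes differed at least 2-fold at both days 6 held it, so the E-box was not more frequent among them than in the list. Those of Wdr43 (chr17:71615965-71616264, + strand) and Mybbp1a (chr11:72441077-72441376, + strand) follow with the E-box in capitals, as the members with a match that differed most.

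Wdr43: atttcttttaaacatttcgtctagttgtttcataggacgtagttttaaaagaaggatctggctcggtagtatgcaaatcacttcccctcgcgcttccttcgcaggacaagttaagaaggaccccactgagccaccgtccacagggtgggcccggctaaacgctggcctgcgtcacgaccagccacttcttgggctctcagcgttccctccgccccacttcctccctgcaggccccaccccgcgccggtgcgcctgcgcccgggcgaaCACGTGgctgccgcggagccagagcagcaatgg

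Mybbp1a: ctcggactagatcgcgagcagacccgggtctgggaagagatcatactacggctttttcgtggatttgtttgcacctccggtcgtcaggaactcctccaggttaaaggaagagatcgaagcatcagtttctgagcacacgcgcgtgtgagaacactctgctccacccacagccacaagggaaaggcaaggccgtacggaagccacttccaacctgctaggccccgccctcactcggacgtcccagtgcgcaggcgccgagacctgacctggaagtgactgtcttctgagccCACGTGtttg

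Wdr43, a nucleolar factor of rRNA processing, had 3779.8 and 3828 in CD73- cells and 989 in MEF, and the Myb-binding protein gene Mybbp1a 3694 and 3754 against 1073 in MEF. For the matrix list the TEAD site GGAATG was found in 6 of 37 promoters (16.2%), close to the 14.6% of all promoters.

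Chromatin genes were higher in 9 of 33 and lower in 0, with medians of 0.69 and 0.85. The maintenance methyltransferase gene Dnmt1 had 2820.2 and 2753 in CD73- cells and 794 in MEF, and Ezh2, which writes H3K27 methylation, 2366 and 2329 against 696 in MEF. Wdr5, a subunit of H3K4 methyltransferases, had 1597 and 1683 in CD73- cells and 310.1 in MEF, and the remodeler gene Chd7 565 and 628 with MEF at the floor. Tet2, which oxidises methylated cytosine, had 891 and 1140.4 in CD73- cells and 523 in MEF, but 2545 and 2502 in CD49d+ and 2565 and 3044 in CD73+ cells (-1.40 ± 0.0930 log2 units, SE, limma, adjusted p = 0.00476). Of 34 members tested, 8 were lower and 1 (Eed) higher in CD73- than in poised cells, against 7.16% and 4.85% of all genes tested.

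Of the 36 genes of the pluripotency network on the array, Esrrb, Zfp42, Dppa5a and 13 others lay at the floor in CD73- cells and MEF, as did 40.2% of all named genes. Nanog, a core factor of the network, had 100 and 167 in CD73- cells, 100 in MEF and 5019 in ESC. Of the 20 counted, 6 were higher at both days and 1 lower, with medians of 0.49 and 0.98. Utf1, an early marker of reprogramming, had 574 and 1012 in CD73- cells, 149 in MEF and 6013 in ESC, and exceeded poised cells by 1.06 ± 0.133 log2 units (SE, limma, adjusted p = 0.0144). Nr0b1, an orphan nuclear receptor, had 406 and 993 in CD73- cells with MEF at the floor, but 3908 and 4755 in CD49d+ and 5284 and 5280.3 in CD73+ cells. Fgf4 had 246 and 469 in CD73- cells with MEF at the floor, and was likewise lower than in poised cells (-1.61 ± 0.107 log2 units, SE, limma, adjusted p = 0.00476). The others were Mybl2, Dnmt3b and Tet1, of which Tet1 fell short of 2-fold under median centring, and the lower gene was Klf2, with 138 and 133 in CD73- cells and 294 in MEF.

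Epithelial genes, whose gain accompanies the loss of mesenchymal traits in reprogramming, were higher at both days in 2 of 33 counted and lower in 1, with medians of 0.15 and 0.49, and with median centring 1 was higher. The E-cadherin gene Cdh1 had 302 and 465 in CD73- cells, 206 in MEF and 2962 in ESC, and Epcam had 202 and 347 in CD73- cells, 174 in MEF and 2393 in ESC. Dsp, the desmosomal plaque protein, was higher at 491 and 686 in CD73- cells with MEF at the floor, yet lower than in poised cells (-1.27 ± 0.0780 log2 units, SE, limma, adjusted p = 0.00445). Cdh3, the gene of P-cadherin, had 488 and 481 in CD73- cells and 2948 in MEF and was the 1 lower gene. Of 38 tested, 10 were lower in CD73- than in poised cells and 2 higher, against 7.16% and 4.85% of all genes tested. Among the lower ones were Itgb4 (-1.33 ± 0.163 log2 units, SE, limma, adjusted p = 0.0137) and Spint2 (-0.90 ± 0.0985 log2 units, SE, limma, adjusted p = 0.0105). Of the epidermal genes 4 of 20 were higher, namely Perp, Krtdap, the desmocollin gene Dsc3 and Krt17, a keratin, with 275 and 373 in CD73- cells and MEF at the floor.

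Imprinted genes and genes of trophoblast differed in both directions, 4 higher and 9 lower of 25, against 2 higher and 10 lower with median centring. Igf2, a fetal growth factor, had 295 and 258 in CD73- cells and 2436 in MEF, and Peg3 929.8 and 807 against 4290.4 in MEF. Phlda2, a maternally expressed gene that limits placental growth, had 457 and 455 in CD73- cells with MEF at the floor, while CD49d+ cells had 100 and 166 and CD73+ cells 106 and 100 (1.99 ± 0.206 log2 units, SE, limma, adjusted p = 0.00960). Peg10, a retrotransposon-derived gene of the placenta, had 1149 and 820.1 in CD73- cells and 392 in MEF. Of 25 tested, 7 were higher and 1 lower in CD73- than in poised cells, against 4.85% and 7.16% of all genes tested. Neural genes were higher in 3 of 23 and lower in 1: the microtubule regulator gene Stmn2 had 3387 and 4232 in CD73- cells and 361 in MEF, and Sox1 431 and 577 with MEF at the floor.

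In the p53 and cell cycle inhibitor list 1 of 26 was higher and 4 lower, with medians of -0.23 and -0.09. Cdkn1a, the gene of p21, had 6921 and 7246 in CD73- cells and 7552 in MEF. Cdkn2b, a neighbour of Cdkn2a, had 359 and 400.1 in CD73- cells and 1209.9 in MEF, Igfbp3 208 and 392 against 3502 in MEF, and Rb1, the higher gene, 2426 and 2397 against 889 in MEF (under 2-fold with the mean of its probe sets). Glycolysis and hypoxia genes were higher in 3 of 24 and lower in 4, and the sign of their median (0.05 and 0.10) turned with median centring (-0.08 and -0.09). Hexokinase 2, from Hk2, had 970.3 and 1099 in CD73- cells and 196 in MEF, and the hypoxia-induced peptide gene Adm lay at the floor in CD73- cells at both days and at 579.7 in MEF. Genes of oxidative phosphorylation were higher in 3 of 42 and lower in 0, with medians of 0.25 and 0.27, and 1 was higher under median centring and under quantile normalization. The list was led by the cytochrome c gene Cycs with 4272 and 4430.1 in CD73- cells and 1874 in MEF.

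Lists of markers of other cell types were also counted. Of 11 endothelial markers 7 were counted, 1 higher and 2 lower: the angiopoietin receptor gene Tek had 459 and 633 in CD73- cells and 117 in MEF, while the VEGF receptor gene Flt1 had 152 and 166 in CD73- cells and 582 in MEF, and Ecscr had 102 and 112 in CD73- cells and 307 in MEF. Of 11 macrophage and blood cell markers 5 were counted and 0 differed 2-fold at both days. In each of the skeletal muscle, adipocyte, chondrocyte and osteoblast, and endoderm lists 1 gene was lower and 0 higher, of 6, 4, 3 and 6 counted. These were the actin gene Acta1 (3.30- and 3.85-fold lower), the fatty acid binding protein gene Fabp4 with 100 and 149 in CD73- cells against 415 in MEF, the cartilage regulator gene Sox9 with 150.0 and 183 against 865 in MEF, and Gata6, an endoderm regulator at the floor in CD73- cells and at 260.3 in MEF. The part of such cells in the differences given here was not tested.

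Between the days CD73- cells differed in few genes, and most of these were higher at day 9. Of the 13265 genes counted, 81 were at least 2-fold higher at day 9 than at day 6 and 3 lower, from 1 array each. Some of the 81 lay at the floor at day 6, so their folds are lower bounds. These counts were not repeated under other scaling. Serpina3n, a secreted protease inhibitor, had 125 at day 6 and 1028 at day 9, with 917 in MEF, and the interferon-inducible gene Ifi27 had 153 at day 6, 716 at day 9 and 1674 in MEF. These levels came closer to MEF. Alpl, the alkaline phosphatase of stem cells, had 152 and 778 with MEF at the floor and 1854 in ESC. The hormone precursor gene Trh had 107 and 535, and the neurofilament gene Nefl 113 and 777, again with MEF at the floor. Tmem45a had 112 at day 6, 506 at day 9 and 841 in MEF. In CD73+ cells the levels at day 6 and day 9 were 778 and 1354 for Alpl, 1219 and 2713 for Trh and 551 and 1151 for Nefl, each higher than in CD73- cells of the same day. CD73+ cells also had more Serpina3n (301 and 946) and Ifi27 (273 and 781) at day 9 than at day 6. CD49d+ cells had 177 and 218 for Serpina3n and 357 and 270 for Ifi27. Downward in CD73- cells, Cnfn, a cornified envelope protein, had 1245 at day 6 and 524 at day 9, with 184 in MEF. The hedgehog-binding protein gene Hhip had 207 at day 6 and lay at the floor at day 9. Over the fibroblast genes the median difference of CD73- cells from MEF was smaller at day 9 (-2.08) than at day 6 (-2.22 log2 units). This gap rests on 1 array per day and was not tested. Median centring narrows it, as it shifts day 9 by -0.19 and day 6 by -0.13 log2 units.

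**Figure D5:**
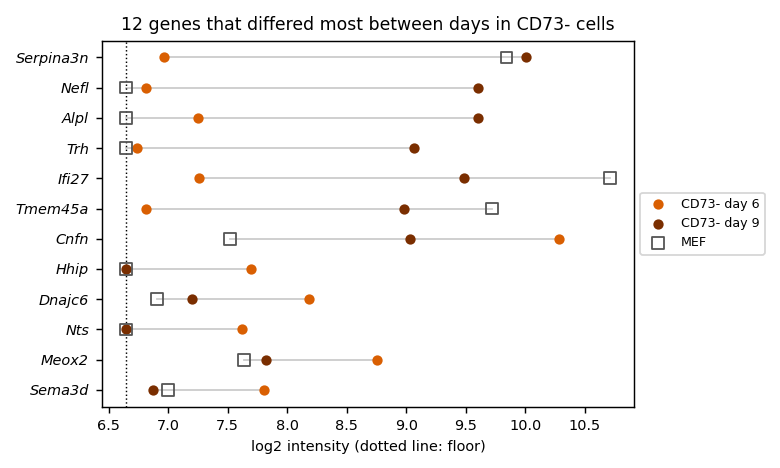
Log2 intensity of the 6 genes with the largest excess of day 9 over day 6 in CD73- cells (upper rows) and the 6 with the largest excess of day 6 (lower rows). Filled points are CD73- day 6 and day 9, open squares MEF, 1 array each, and the dotted line is the floor of 100. Serpina3n, Ifi27 and Tmem45a lie nearer to MEF at day 9, while Nefl, Alpl and Trh lie farther from it.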

How the data were processed

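RNA was labelled and hybridised to whole-transcript arrays, 1 array per group. The deposited values are linear intensity values with a floor of 100; the submitters' processing notes name Partek. The sources used here do not give the background correction, summarisation or scaling. Log2 was taken and each CD73- day was set against MEF. Of 41345 probe sets, 23521 had 1 gene symbol in the platform annotation, 1814 several and 16010 none; 22180 genes were named, and a gene with several probe sets took the one with the highest mean over all arrays. Every value column was matched to a sample. limma 3.58.1 (R 4.3.3) was fitted to the 8 reprogramming arrays, with Benjamini-Hochberg adjustment over all genes tested, and was tested on simulated data; Python 3.11.15, pandas 2.3.3 and numpy 2.4.6 did the rest. By rule the text names the 20 genes farthest above and the 20 farthest below MEF by the smaller difference of both days (predicted genes, short RNAs and receptor families of smell left out), the 15 retained genes with the largest excess of MEF over ESC, 6 genes each way between the days, the 4 factors, both sorting markers, and for each of 28 lists up to 6 members plus defining markers. Outside the rule, and chosen after their values were seen, are Aldh1a1, Gria4, the list members that passed in the comparison with poised cells (Bgn, Ccne1, Eed, Efemp1, Eng, Fbln1, Fgf7, Gadd45b, Icam1, Itgb4, Nle1, Noc4l, Nolc1, Nop14, Nop58, Ogn, Polr1a, Postn, Prrx1, Ptx3, Rcl1, Rrp12, Spint2, Tet2), and Alx1, Cd44, Cdh1, Cdkn1a, E2f1, Eif4a1, Epcam, Hgf, Klf2, Lox, Mybbp1a, Peg10, Pmepa1, Snai2, Tgfbr1, Tgfbr2, Vcl, Vim, Wdr43 and Wnt5a. The members and lists were chosen with earlier results of these data known. The number of arrays limits the precision. Alternatives were another threshold, median centring, quantile normalization, the mean of all probe sets, other definitions of fibroblast genes, and other sets of arrays in limma.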

Additional observations from a re-analysis of the deposited data

Results flagged for a closer look

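Probe sets with no gene symbol or with several were left out of the gene counts, and they carried signal too. Of 7603 such probe sets above the floor on at least 1 of the 3 arrays, 620 (8.15%) were at least 2-fold higher in CD73- cells than in MEF at both days and 271 (3.56%) were at least 2-fold lower. No gene is named for them here, and with 1 array per group the difference was not tested.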

How the results depend on the processing

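No paired analysis was possible because each group has 1 array and the labels give no replicate numbers; day was a term of the limma fit, and without it 491 genes were higher and 690 lower in CD73- than in poised cells. A threshold of 1.5 log2 units left 664 genes higher and 805 lower at day 6, 709 and 666 at day 9, and 591 and 638 at both days. With fibroblast genes defined by MEF at least 3 log2 units above ESC, 9 were retained and 168 lost; with MEF above both ESC and SC4, 7 were retained; with a band of 1 log2 unit, 76 were retained. These counts follow from the definitions. For CD73- minus poised cells, median centring gave 1145 genes higher and 1137 lower, no filter on dim genes gave 339 higher and the 6 sorted arrays alone 410 higher; leaving out 1 array gave 0 to 812 higher and 1 to 963 lower, lowest without unsorted day 6 and highest without CD49d+ day 9, and the cause was not tested. Without CD73- day 6 the counts were 12 and 39, and without CD73- day 9 they were 13 and 118. Of 214 named genes, median centring turned the sign of 10 and quantile normalization of 3, each at most 0.19 log2 units from MEF at its nearer day; no gene counted as higher or lower changed direction. Centring took 7 genes under 2-fold (Cd109, Cox7c, Dglucy, Dsc2, Dsc3, Ndufb8 and Tet1) and brought Cdkn2c and Itga4 past it; quantile normalization took Cox7c, Dglucy and Ndufb8 under it and brought Itga4 and St14 past it. With fibroblast genes defined anew after scaling, 27 were retained under centring and 41 under quantile normalization, each of 580. Averaging all probe sets of a gene moved 8 of 10 genes and turned the direction of 0, with Mybl2, Pdk1 and Rb1 under 2-fold at 0.93, 0.74 and 0.72 log2 units. Lgr5 and Adh1 moved from -4.27 and -4.16 to -2.48 and -2.08 log2 units, and Dut from 2.65 to 1.33.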
